A study of Fundulus heteroclitus with 20 samples.

Results

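The genes described here are those of the cell cycle and of DNA replication in the midbrain/diencephalon of the adult mummichog (Fundulus heteroclitus), a killifish of Atlantic marshes. They were chosen by their written descriptions in the deposited count table: cyclins A, B, D and E, cyclin-dependent kinases (CDKs) with their inhibitors and partners, minichromosome maintenance and licensing factors, DNA polymerases alpha, delta and epsilon, aurora and polo-like kinases, cell division cycle proteins, ribonucleotide reductase, topoisomerases and E2F factors. The choice used descriptions alone, but it was made with earlier results of these data known. It found 74 of the 13679 genes in the table once transfer RNA entries were set aside. Of these, 30 carry only a LOC placeholder as their symbol, so their names rest on similarity. No gene was described as a cyclin A, a cyclin E, proliferating cell nuclear antigen or a polo-like kinase. Nor was any member described as CDK2, CDK4 or CDK5, or as mcm3, mcm4, mcm5 or mcm6. The catalytic subunits of polymerases delta and epsilon were also absent from the members, so none of these genes was tested here.

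RNA was sequenced from 10 lesioned hemispheres and from the 10 contralateral intact hemispheres of the same 10 adult fish, which came from a commercial supplier. Each fish was anesthetized with 2-phenoxyethanol, a needle was passed through the optic tectum and tegmentum of one side into the hypothalamus beneath, and the fish was killed 1 h post-lesion. The intact hemispheres therefore shared the anesthesia, the handling and the injured brain, and no uninjured fish was among these libraries. The labels place all lesioned hemispheres on the right and all intact ones on the left, while the study's methods describe lesions split over both sides, so by the labels the side and the lesion cannot be told apart.

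A dividing cell passes from growth (G1) into DNA synthesis (S) and on to mitosis as cyclins switch on CDKs. CDK inhibitors hold these kinases in check, E2F factors turn on the genes of S phase, and the minichromosome maintenance (MCM) helicase, once loaded at origins, opens DNA for the polymerases. Adult fish keep dividing cells in many brain regions, the tectum included, and injury of the adult fish brain is known to be followed by proliferation over days. Several genes that carry cell cycle names also work outside the cycle: CDK5 and its activators in neurons, and CDK7, CDK8, CDK9, CDK13 and CDK19 with RNA polymerase II. The tissue is bulk, so fewer cells of a type and less RNA per cell cannot be told apart.

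The lesioned libraries held 9558789 to 10818067 counts (median 10175715.5) and the intact libraries 9213580 to 11070103 (median 10110917.5). Of the 74 genes, 66 passed the filter on low counts, among 10513 genes tested. The neuronal markers matched in the table (4 genes) were present throughout, with a summed 2334 to 2692 CPM (counts scaled to a library total of 1000000) in lesioned and 2269 to 2826 CPM in intact hemispheres. Of the radial glia list a single gene was matched, slc1a2, a glutamate transporter, at 3878 to 5351 CPM in lesioned and 4026 to 5415 CPM in intact hemispheres. Both libraries of a pair came from 1 animal, so every test compared hemispheres within fish.

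At 1 h, 1 CDK inhibitor gene was 1.71-fold higher in lesioned hemispheres. None of the tested cyclin, CDK, helicase, polymerase or aurora genes passed the stringent cutoff. In edgeR's quasi-likelihood test with fish as a block and Benjamini-Hochberg adjustment over all genes, 2 of the 66 members (3.03%) reached an adjusted p of 0.1 or less, against 1.38% of all genes tested, and both were higher in lesioned tissue, against 1.28% of all genes called higher and 0.0951% called lower. At the looser cutoff of 0.4, 5 members were higher and 1 was lower, or 9.09% of the 66 against a background of 10.1% (6.12% higher, 3.97% lower), so the share of members called was near that of all genes. An unadjusted p under 0.05 was found for 8 members (12.1%, 6 higher and 2 lower), against 11.7% of all genes (6.91% higher, 4.78% lower). The members' median log2 fold change was -0.0165, against -0.00875 over all genes. A positive fold change was found for 26 members (39.4%) and a negative one for 40, against 45.1% positive over all genes. The 95% interval of the log2 fold change lay within 0.5 of 0 for 61 of the 66 members and within 0.25 for 44.

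The calls at the looser cutoff moved with the scaling and with single fish. With library totals in place of trimmed-mean scaling, 2 members were higher and 3 lower, and with upper quartile scaling 2 were higher and 6 lower. Leaving out 1 fish at a time gave 2 to 14 members at that cutoff. The count was 14 (9 higher, 5 lower, 21.2% of members against 19.6% of all genes) without fish 3, and it was 2 without fish 2, fish 8 or fish 9, and 3 without fish 4, fish 6, fish 7 or fish 10. At the stringent cutoff the count was 1 or 2 in every one of these fits.

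**Figure D1:**
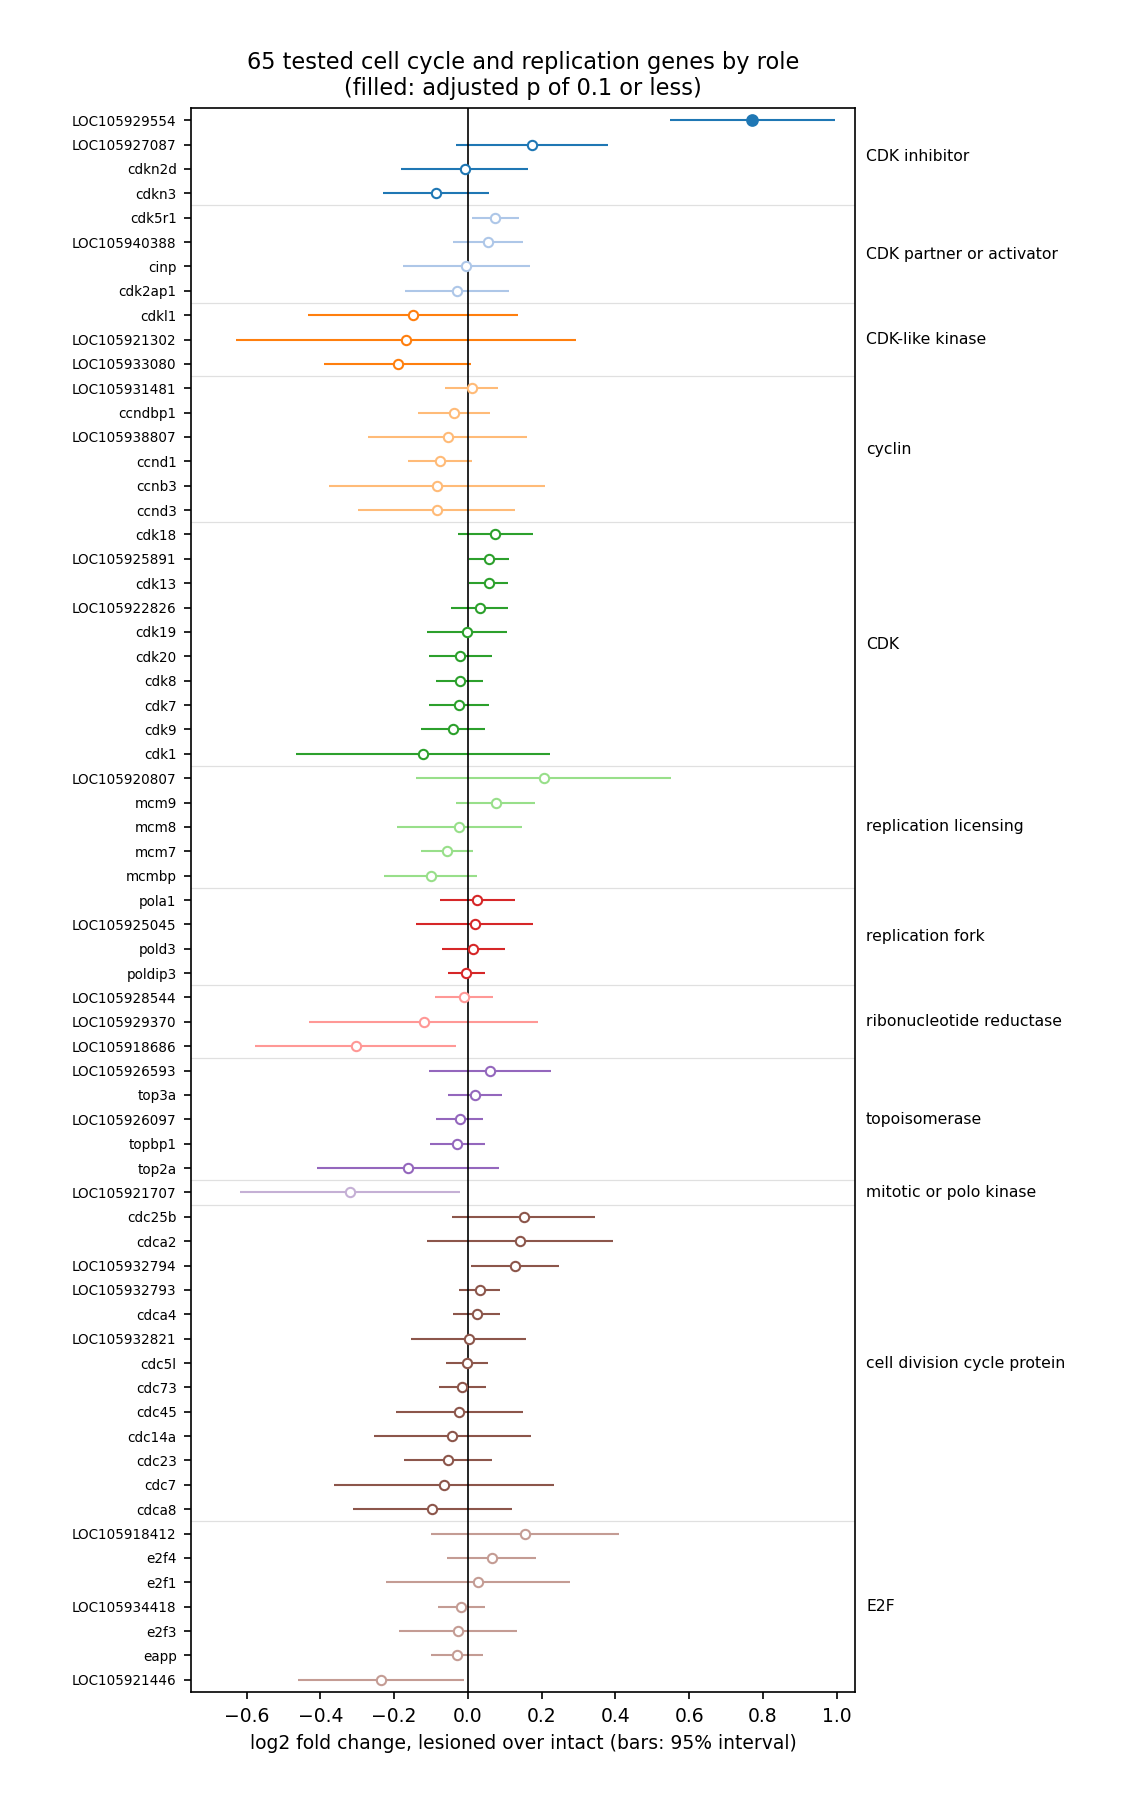
Log2 fold change (lesioned over intact, horizontal axis) with its 95% interval for 65 of the 66 tested genes, grouped by role, with filled points for an adjusted p of 0.1 or less. The CDK inhibitor LOC105929554 stands at 0.77, and the other points lie between -0.32 and 0.21.

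CDK inhibitors are proteins that bind CDKs or cyclin-CDK complexes and slow or stop the cycle. LOC105929554 is described as CDK inhibitor 1C-like (in mammals CDKN1C is p57, an inhibitor tied to cell cycle exit). RefSeq gives it no symbol beyond the placeholder, and gives the symbol cdkn1ca to LOC105918965, described as CDK inhibitor 1B-like. Which of them is the counterpart of CDKN1C was not tested. LOC105929554 had 20.0 CPM at the lowest, 25.8 at the median and 39.4 at the highest in the 10 lesioned hemispheres. The 10 intact ones had 11.7, 14.97 and 24.5 CPM. The groups overlapped through a single intact library, that of fish 5 at 24.5 CPM, since the other 9 intact hemispheres lay at or below 19.0 CPM. Means were 27.5 ± 5.93 CPM in lesioned and 16.1 ± 3.78 CPM in intact hemispheres (SD, n = 10 each). The log2 fold change was 0.77 (SE 0.10, 95% interval 0.55 to 1.00), with an adjusted p of 0.00112 in edgeR's quasi-likelihood test.

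LOC105929554 was higher on the lesioned side in 9 of 10 fish. Fish 1 showed the highest ratio, with 32.4 CPM in the lesioned and 12.7 CPM in the intact hemisphere. Fish 7 had the highest lesioned level, 39.4 CPM, against 19.0 CPM on its intact side. In fish 5 the hemispheres were level, at 24.4 CPM lesioned and 24.5 CPM intact. The two-sided exact sign-flip permutation test over the 10 fish gave p = 0.00391 for this gene, which came to 0.213 after adjustment over all genes, where the smallest p that 10 fish allow is 0.00195 and 112 genes reached it. Counts of 212 to 396 in lesioned and 129 to 225 in intact libraries stand behind these levels. The call held in all 16 other fits, with log2 fold changes of 0.71 without fish 1 to 0.86 without fish 5.

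The other inhibitors did not pass either cutoff. LOC105927087, CDK inhibitor 1-like (the family of mammalian p21, a target of p53), had 11.0 to 19.1 CPM (median 13.9) in lesioned and 9.02 to 18.0 CPM (median 13.4) in intact hemispheres. It was higher on the lesioned side in 7 fish. Its log2 fold change of 0.17 (SE 0.10) had an adjusted p of 0.524 with edgeR. Without fish 5 the log2 fold change was 0.25 and passed the looser cutoff (adjusted p = 0.214, edgeR). The adjusted p was 0.453 or more in every other fit. The ranges of its levels overlapped. For cdkn3, a phosphatase that acts on CDKs, the log2 fold change was -0.09 (SE 0.07, adjusted p = 0.662 with edgeR). For cdkn2d, the p19 inhibitor of CDK4 and CDK6, it was -0.01 (SE 0.08, adjusted p = 0.991 with edgeR). The gene described as CDK inhibitor 1B-like, LOC105918965, had 0 to 3 counts per library and was not tested.

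**Figure D2:**
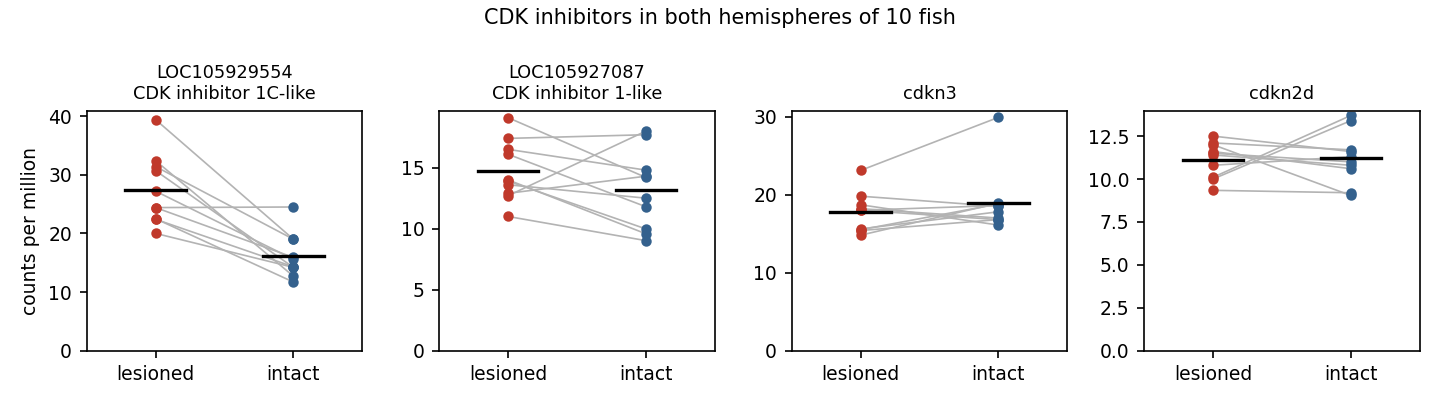
CPM of 4 CDK inhibitor genes in the lesioned (left) and intact (right) hemisphere of each of 10 fish, with grey lines joining the hemispheres of 1 fish and black bars for group means. The lines of LOC105929554 run downward to the intact side in 9 fish, while those of LOC105927087, cdkn3 and cdkn2d cross.

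The CDK-like kinases are a branch of the family named for its sequence. For LOC105933080 and cdkl1, both CDK-like 1 by description, levels were 2.55 to 5.45 CPM and 3.40 to 6.03 CPM in lesioned hemispheres, against 3.56 to 6.83 CPM and 3.41 to 6.98 CPM in intact ones. Their log2 fold changes were -0.19 and -0.15, with adjusted p of 0.47 and 0.72 (edgeR), and neither passed.

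The partners of CDK5 were described by the same word search. The gene cdk5r1 encodes p35, the neuronal activator of CDK5, and had 562.9 CPM at the lowest, 606.3 at the median and 663.8 at the highest in lesioned hemispheres, against 532.7, 577 and 641.9 CPM in intact ones. It was higher in 7 of 10 fish, by a log2 fold change of 0.07 (SE 0.03), and passed the looser cutoff with an adjusted p of 0.350 (edgeR). Its like-described relative LOC105940388, CDK5 activator 1-like, had 0.05 (SE 0.04, adjusted p = 0.685, edgeR). The CDK2 partners cdk2ap1 and cinp had log2 fold changes of -0.03 and -0.0045, with adjusted p of 0.908 and 0.997.

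Cyclins set the phase of the cycle, the D type in G1 and the B type in mitosis. None of the 6 tested genes with cyclin descriptions passed either cutoff, and their log2 fold changes ran from -0.08 to 0.01. For ccnd1, cyclin D1, the levels were 35.1 CPM at the lowest, 41.9 at the median and 48.9 at the highest in lesioned hemispheres, and 38.1, 45.4 and 49.6 CPM in intact ones. Its log2 fold change was -0.07 (SE 0.04, adjusted p = 0.514, edgeR), with 4 of 10 fish higher on the lesioned side. The cyclin D2-like gene LOC105931481 differed by 0.01 (SE 0.03, adjusted p = 0.941), with 77.2 to 87.3 CPM in lesioned and 73.2 to 90.7 CPM in intact hemispheres. Cyclin D3, ccnd3, had -0.08 (SE 0.10, adjusted p = 0.800). The cyclin D1 binding protein ccndbp1 had -0.04 (SE 0.05, adjusted p = 0.816).

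The B-type cyclins activate CDK1 at the entry to mitosis, and both had few counts. The cyclin-B2-like gene LOC105938807 had 2.52 CPM at the lowest, 3.93 at the median and 5.19 at the highest in lesioned, against 2.95, 4.03 and 4.94 CPM in intact hemispheres, and 5 fish went each way. For ccnb3, cyclin B3, the log2 fold change was -0.08 (SE 0.14, adjusted p = 0.869, edgeR). Their partner cdk1, the kinase that drives mitosis, had 2.23 CPM at the lowest, 3.54 at the median and 4.38 at the highest in lesioned and 1.70, 3.79 and 6.11 CPM in intact hemispheres. It was higher on the lesioned side in 4 fish, with a log2 fold change of -0.12 whose 95% interval ran from -0.47 to 0.22 (adjusted p = 0.826, edgeR). Counts of 23 to 46 in lesioned and 17 to 62 in intact libraries limit what can be seen for cdk1, and the data do not tell apart differences inside that interval.

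The CDKs that act with RNA polymerase II had closer estimates. The gene cdk13, a kinase of transcript elongation and processing, differed the same way in each of the 10 fish, lesioned above intact, though by little: 62.2 to 82.5 CPM (median 70.6) in lesioned and 60.8 to 82.0 CPM (median 69.0) in intact hemispheres. Its log2 fold change was 0.06 (SE 0.02, adjusted p = 0.381, edgeR), and its exact sign-flip p was 0.00195, the smallest 10 fish can give (0.183 adjusted over all genes). In all, 5 members (7.58%) were higher on the lesioned side in at least 9 of 10 fish, among them LOC105929554, cdk13, cdc25b and e2f4, against 3.63% of all genes. None was lower in at least 9 fish, against 2.10% of all genes. For cdc25b and e2f4 the exact sign-flip p was 0.141 and 0.23 (0.584 and 0.672 adjusted over all genes). LOC105925891, CDK11B-like, missed the looser cutoff narrowly with 0.06 (SE 0.03, adjusted p = 0.408). For cdk18 and for LOC105922826, CDK16-like, members of the PCTAIRE branch found in neurons, the log2 fold changes were 0.07 and 0.03 with adjusted p of 0.589 and 0.797. The remaining kinases cdk7, cdk8, cdk9, cdk19 and cdk20 lay between -0.04 and -0.0021.

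Replication starts when the MCM helicase is loaded and fired. None of the 5 tested genes with minichromosome maintenance or licensing descriptions passed either cutoff, and not all of them encode subunits of that helicase. The helicase subunit mcm7 had 40.4 CPM at the lowest, 44.9 at the median and 56.3 at the highest in lesioned hemispheres, against 43.9, 46.3 and 58.4 CPM in intact ones, and its log2 fold change was -0.06 (SE 0.03, adjusted p = 0.544, edgeR). Levels overlapped throughout, and fish 8 had the highest value on both sides. The mcm2-like gene LOC105920807 had 1.84 to 4.36 CPM (median 3.44) in lesioned and 0.998 to 4.46 CPM (median 2.79) in intact hemispheres, with 8 fish higher on the lesioned side. Its log2 fold change of 0.21 (SE 0.16, adjusted p = 0.671) became 0.35 (adjusted p = 0.307, edgeR) without fish 4, where the lesioned side had 2.06 and the intact side 4.44 CPM, and the adjusted p was 0.605 or more in every other fit. The MCM binding protein mcmbp had -0.10 (SE 0.06, adjusted p = 0.550), and mcm8 and mcm9, helicases of recombination repair, had -0.02 and 0.08 (adjusted p = 0.949 and 0.608).

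The fork genes were the most even of the role groups with 4 or more tested members. Log2 fold changes ran from -0.0042 for poldip3, a partner of polymerase delta, to 0.03 for pola1, the catalytic subunit of the polymerase that lays primers. The pair between them was pold3, an accessory subunit of polymerase delta (0.02, SE 0.04), and LOC105925045, polymerase epsilon subunit 3-like (0.02, SE 0.07). All 4 had adjusted p of 0.889 or more (edgeR), and pola1 had 21.8 to 37.7 CPM in lesioned and 24.3 to 39.0 CPM in intact hemispheres.

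Ribonucleotide reductase makes the deoxynucleotides for DNA synthesis, and its 3 tested genes had negative fold changes. LOC105918686, subunit M2-like, was the single member lower at the looser cutoff, with 1.16 CPM at the lowest, 1.95 at the median and 2.46 at the highest in lesioned and 0.998, 2.33 and 3.72 CPM in intact hemispheres. The groups overlapped, with 7 fish lower on the lesioned side, and the highest intact values were those of fish 2 (3.72 CPM) and fish 6 (3.20 CPM). The log2 fold change was -0.30 (SE 0.13, adjusted p = 0.373, edgeR) on 12 to 26 counts in lesioned and 10 to 37 counts in intact libraries. LOC105918686 also passed with DESeq2 size factors, library totals or upper quartile scaling, and without fish 1, fish 3 or fish 5. It did not pass with no filter (adjusted p = 0.502, edgeR), with the DESeq2 test (adjusted p = 0.999), with no replicate block, or with any other fish left out. A gene of the same description, LOC105918678, had 3 to 18 counts and was not tested, and how reads were split between like-described genes is not known. LOC105928544, subunit M2 B-like (in mammals RRM2B is a subunit induced by p53), differed by -0.01 (SE 0.04, adjusted p = 0.948), with 68.1 to 86.3 CPM in lesioned and 66.3 to 83.3 CPM in intact hemispheres. For the large subunit-like gene LOC105929370 the log2 fold change was -0.12 (SE 0.14, adjusted p = 0.812).

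Topoisomerases relieve the twist of DNA, and topoisomerase II alpha is a usual mark of S to M phase cells. Its gene top2a had 4.87 CPM at the lowest, 7.38 at the median and 11.4 at the highest in lesioned hemispheres, against 5.50, 7.21 and 14.4 CPM in intact ones. Fish 2 was highest on both sides, at 11.4 CPM lesioned and 14.4 CPM intact. The log2 fold change was -0.16 (SE 0.11, adjusted p = 0.637, edgeR), with 3 fish higher on the lesioned side. The topoisomerase 1-like pair LOC105926097 and LOC105926593 had -0.02 and 0.06, top3a had 0.02, and topbp1, a scaffold of replication and of the checkpoint, had -0.03. No member of this group had an adjusted p below 0.637.

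Aurora kinase B guides chromosome segregation and cytokinesis. Its like-described gene LOC105921707 had the most negative estimate of the 66 members, -0.32 (SE 0.14, adjusted p = 0.430, edgeR), and did not pass. Levels were 0.291 CPM at the lowest, 1.65 at the median and 2.21 at the highest in lesioned and 0.599, 1.99 and 2.37 CPM in intact hemispheres, with 3 fish higher on the lesioned side. These came from 3 to 24 counts in lesioned and 6 to 24 counts in intact libraries, and fish 3 was lowest on both sides. It passed the looser cutoff in 4 of the 16 other fits: with library totals (adjusted p = 0.396), with upper quartile scaling (0.375), without fish 3 (0.385) and without fish 5 (0.351, edgeR). Across the 16 fits the log2 fold change ran from -0.37 without fish 5 to -0.26 without fish 4, where the adjusted p was 0.612, and the DESeq2 test gave an adjusted p of 0.999.

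**Figure D3:**
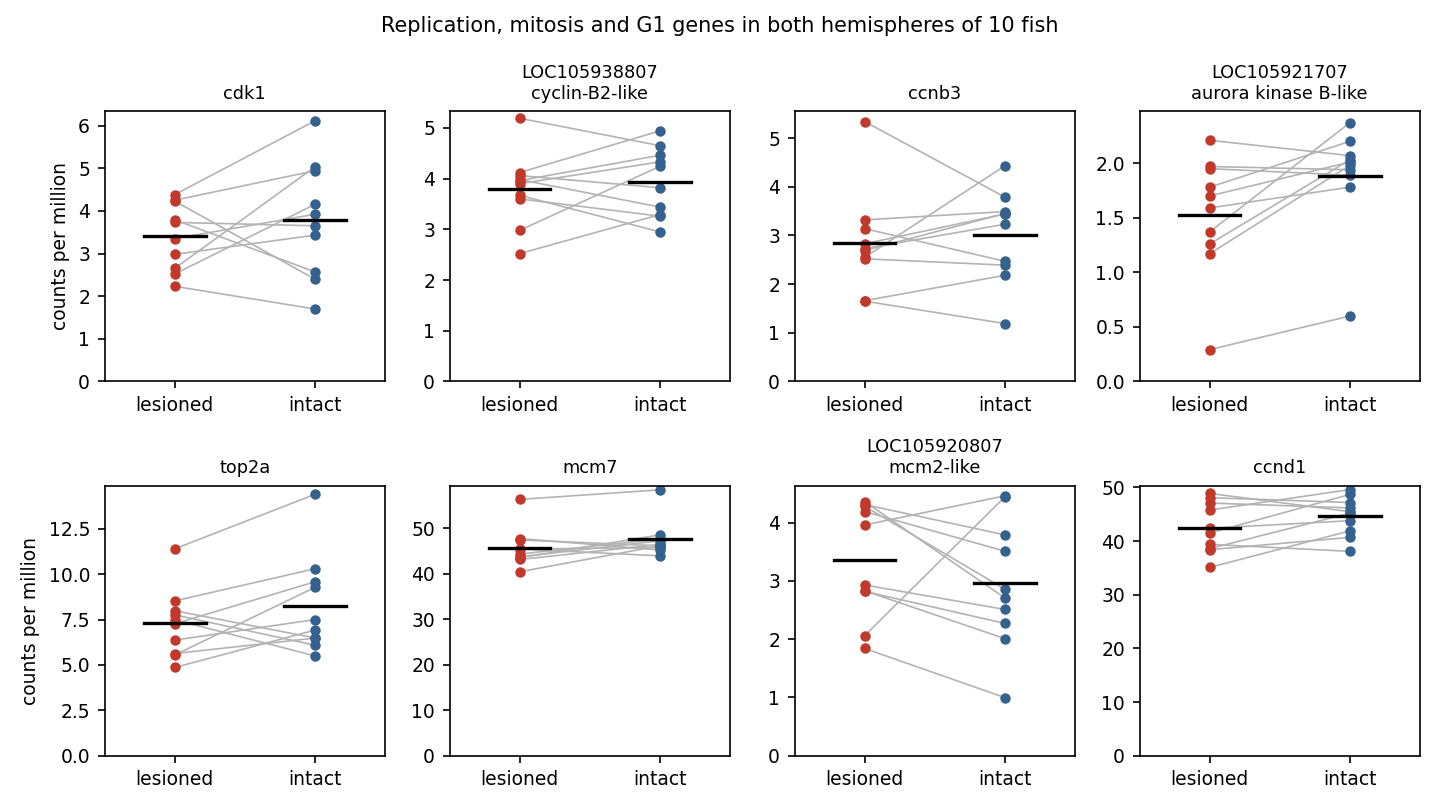
CPM of 8 genes of G1, replication and mitosis in the lesioned (left) and intact (right) hemisphere of each fish, with lines joining the hemispheres of 1 fish and black bars for means. Ranges overlap in every panel, as for cdk1 (2.23 to 4.38 CPM lesioned, 1.70 to 6.11 CPM intact) and ccnd1 (35.1 to 48.9 CPM lesioned, 38.1 to 49.6 CPM intact).

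The cell division cycle group of 13 tested genes is mixed in function, and 1 of them passed the looser cutoff. LOC105932794 is one of 3 genes described as homologs of cell division cycle protein 27, a subunit of the ligase that ends mitosis by marking cyclin B for breakdown. It had 15.5 CPM at the lowest, 17.4 at the median and 18.4 at the highest in lesioned, against 13.4, 15.8 and 18.1 CPM in intact hemispheres, with 7 fish higher on the lesioned side (log2 fold change 0.13, SE 0.06, adjusted p = 0.387, edgeR). The other homologs LOC105932793 and LOC105932821 had 0.03 and 0.0027, so the 3 genes, among which reads may have been divided, did not share the size of the estimate; the difference between them was not tested. The phosphatase gene cdc25b, whose product activates CDK1, had 5.44 to 11.0 CPM (median 7.96) in lesioned and 6.09 to 9.67 CPM (median 7.11) in intact hemispheres. It was higher on the lesioned side in 9 fish, and its log2 fold change of 0.15 (SE 0.09, adjusted p = 0.558) became 0.22 (adjusted p = 0.184, edgeR) without fish 3, while the adjusted p was 0.545 or more in every other fit.

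Other genes of the group had smaller or less certain differences. For cdca2 and cdca8, proteins of mitotic chromosomes, the log2 fold changes were 0.14 (SE 0.12) and -0.10 (SE 0.10). For cdc7, the kinase that fires the loaded helicase, and cdc45, a part of the active helicase, they were -0.06 (SE 0.14) and -0.02 (SE 0.08). The gene cdc73 belongs to a complex that travels with RNA polymerase II and cdc5l to the spliceosome. Their log2 fold changes were -0.01 (SE 0.03) and -0.0022 (SE 0.03).

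E2F factors carry the switch into S phase, and none of the 7 tested genes passed either cutoff. LOC105921446, E2F5-like, a repressor in mammals, had 1.99 to 3.46 CPM (median 2.90) in lesioned and 2.47 to 5.26 CPM (median 3.08) in intact hemispheres, with a log2 fold change of -0.24 (SE 0.10, adjusted p = 0.407, edgeR). The activators e2f1 and e2f3 had 0.03 (SE 0.12) and -0.03 (SE 0.07). The gene e2f4 was higher on the lesioned side in 9 fish, at 15.2 to 19.9 CPM in lesioned and 13.8 to 21.9 CPM in intact hemispheres, with a log2 fold change of 0.06 (SE 0.06, adjusted p = 0.714). Fish 6 alone went the other way. Fish 2 (19.0 CPM lesioned, 18.9 CPM intact) and fish 3 (15.2 CPM on both sides) were nearly level. The E2F4-like gene LOC105918412, the E2F6-like gene LOC105934418 and eapp, an E2F-associated protein, had 0.15, -0.02 and -0.03, with adjusted p of 0.662 or more.

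Genes of the same pathways outside the word search were taken from lists drawn up, like the members, with earlier results of these data known. Over all genes, 1.28% were higher and 0.0951% lower at 0.1, and 6.12% were higher and 3.97% lower at 0.4. Of 21 other replication genes tested (origin recognition, replication factor C, ligases, thymidine kinases, GINS and the like), 0 passed either cutoff in edgeR's test and 0 had an unadjusted p under 0.05, with a median log2 fold change of -0.0186. Of 25 other mitosis genes tested, 0 passed at 0.1 and 1 passed at 0.4, LOC105920439, centromere protein F-like, with 0.15 (SE 0.05, adjusted p = 0.239). Among 28 tested checkpoint and growth arrest genes, 6 were higher and 0 lower at 0.1, and 8 were higher and 1 lower at 0.4. Their median log2 fold change was -0.01, with 13 positive and 15 negative. The lower gene was ccng1, cyclin G1, with -0.08 (SE 0.03, adjusted p = 0.296, edgeR) and 9 fish lower on the lesioned side. The antiproliferative factor btg1 had 647.5 CPM at the lowest and 841 at the highest in lesioned and 462 to 702 CPM in intact hemispheres, with a log2 fold change of 0.35 (SE 0.05, adjusted p = 0.00225, edgeR). Cyclin G2, ccng2, an atypical cyclin tied to cycle arrest, had 37.1 to 55.5 CPM in lesioned and 19.6 to 41.2 CPM in intact hemispheres, a log2 fold change of 0.72 (SE 0.11, adjusted p = 0.00272). Both were higher on the lesioned side in 9 of 10 fish. The stress gene gadd45b had the smallest p of this list, with a log2 fold change of 1.31 (adjusted p = 0.000123).

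Markers of other cell types were read beside these genes, with the same shares over all genes as background (1.28% higher and 0.0951% lower at 0.1, 6.12% higher and 3.97% lower at 0.4). All 5 tested microglia markers had negative fold changes (median -0.18), of which gpr34 was lower at 0.1 and 3 were lower at 0.4. Their summed level was 84.2 to 135 CPM in lesioned and 80.1 to 168 CPM in intact hemispheres, and none was at 0. The summed level of the erythrocyte list was 6.12 to 19.3 CPM in lesioned and 4.93 to 19.4 CPM in intact hemispheres. It was higher on the lesioned side in 9 fish. Of its 2 tested genes, hemgn, hemogen, was higher in 9 fish and at 0.4 (log2 fold change 0.61, adjusted p = 0.379, edgeR). The hemoglobin alpha-D-like gene LOC105928866 was higher in 6 fish (adjusted p = 0.824, edgeR). The untested hemoglobin genes, alpha-1-like and beta-1-like, had medians of 0.0912 CPM or less on both sides. Skeletal muscle markers summed to 1340 to 2540 CPM in lesioned and 1324 to 2577 CPM in intact hemispheres. Most of this was mb, myoglobin, at 1028 to 2177 CPM lesioned and 1077 to 2112 CPM intact (log2 fold change -0.03). The gene ckm lay at 0 to 42.5 CPM (median 0.50) lesioned and 0 to 3.39 CPM (median 0.28) intact. For mylpf the levels were 6.92 to 60.1 CPM (median 10.7) lesioned and 6.27 to 11.7 CPM (median 9.08) intact. On the lesioned side ckm was higher in 7 fish and mylpf in 8. The sum therefore rests little on ckm and mylpf. Of the 3 tested genes, 1 was higher at 0.4, pvalb, parvalbumin (adjusted p = 0.318, edgeR). It had 193 to 511 CPM in lesioned and 49.0 to 455 CPM in intact hemispheres. Whether its RNA came from muscle or from brain cells was not tested. All 4 tested endothelial markers had negative fold changes, and cldn5 (-0.13) and egfl7 (-0.10) were lower at 0.4. Their summed level was 515 to 689 CPM in lesioned and 498 to 687 CPM in intact hemispheres. Both tested oligodendrocyte markers had negative fold changes as well, with mbp, myelin basic protein, lower at 0.4 (-0.21). Their list summed to 306 to 442 CPM in lesioned and 324.5 to 459 CPM in intact hemispheres and was higher on the lesioned side in 2 fish. The part of these cell types in the values of LOC105929554 and the other genes above was not tested.

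Some members differed between fish by far more than between hemispheres. The standard deviation of log2 levels between fish was at least 2 times that of the ratio between hemispheres for 5 members (7.58%), against 11.0% of all genes, so such genes were no more frequent here than in the table as a whole. They were cdk20, mcm9, LOC105929370, cdk13 and mcmbp. The kinase gene cdk20, tied to the cilium, had 192.7 CPM in the lesioned and 189.5 CPM in the intact hemisphere of fish 7, while the other 18 libraries lay at 45.8 to 59.3 CPM. The reductase large subunit-like gene LOC105929370 had 33.0 CPM lesioned and 40.7 CPM intact in fish 4, against 0.898 to 5.3 CPM elsewhere. The helicase gene mcm9 was low in fish 10, at 9.54 CPM lesioned and 10.9 CPM intact, against 24.0 to 34.1 CPM elsewhere. In each case both hemispheres of the fish stood apart together.

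Fish 3 had the lowest mean level of the 10 fish for 16 of the 66 members (24.2%), against 14.8% of all genes, and the highest for 4 (6.06%), against 13.9%. Those for which it was lowest included cdk1, cdc45, cdc7, the cyclin-B2-like LOC105938807, the cyclin-D2-like LOC105931481, the aurora B-like LOC105921707, the mcm2-like LOC105920807, and the reductase genes LOC105918686 and LOC105929370. Also among them were cdk8, cdk20, cdkl1, e2f3, mcmbp and the polymerase epsilon subunit 3-like LOC105925045. Other genes of dividing cells were lowest elsewhere: top2a, ccnb3 and cdca8 in fish 1, and mcm7 and ccnd1 in fish 5. For cdk1 the levels of fish 3 were 2.23 CPM lesioned and 1.70 CPM intact, and for LOC105920807 they were 1.84 CPM lesioned and 0.998 CPM intact. These genes share libraries and the counts of many are low. That does not hold for LOC105931481 (739 to 903 counts per library), cdk8 (445 to 611) or cdk20 (472 to 1937). No test was made of the pattern.

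**Figure D4:**
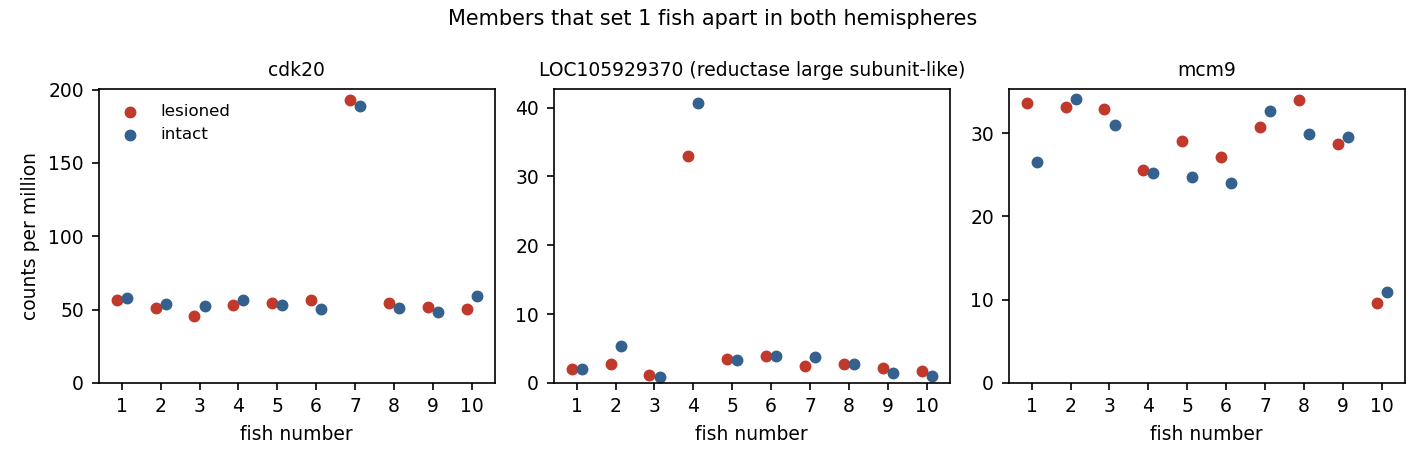
CPM by fish number for cdk20, LOC105929370 and mcm9, with the lesioned (red) and intact (blue) hemisphere of each fish side by side. Fish 7 stands high for cdk20 (192.7 and 189.5 CPM), fish 4 high for LOC105929370 (33.0 and 40.7 CPM) and fish 10 low for mcm9 (9.54 and 10.9 CPM), in both hemispheres each time.

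The 8 members that did not pass the filter were too low to compare. The repressor e2f7 had 4 to 16 counts per library and LOC105924699, CDK15-like, 1 to 11. A further 4 had single-digit counts at most: LOC105921304 (CDK-like 2, 0 to 5), LOC105918965 (CDK inhibitor 1B-like, 0 to 3), LOC105930908 (cell division cycle-associated 7-like, 0 to 3) and LOC105916486 (CDK6-like, 0 to 2). The reductase gene LOC105918678 was given above, and LOC105920267, a probable CDK, had 0 counts in all 20 libraries. Since counts per library do not account for transcript length, levels were not compared between genes.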

How the data were processed

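Total RNA of 20 hemispheres (10 fish) was sequenced and the authors deposited a table of raw counts per gene. Per the labels and the study's methods, adapters were trimmed with cutadapt 1.11, reads were checked with FastQC 0.11.5, aligned with STAR and counted with HTSeq on the Fundulus_heteroclitus-3.0.2 assembly. The strand setting is not given in the sources used here, and the labels and the methods name different library kits. Reads shared by near-identical genes may be divided or lost, and overlapping antisense transcripts cannot be told apart. The authors' own comparison columns (mean, fold change, error, statistic and p-values) were not used, and 0 per-sample columns were left out. The 2585 transfer RNA entries, at most 0.00458% of a library's counts, were left out.

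Members were the 74 genes whose description matched the word list, and RefSeq's gene table held 68 of them by gene ID. The members, the other lists and the roles were chosen with earlier results of these data known, and 2 genes were moved to another role after the counts were seen. Counts were filtered (filterByExpr, minimum count 10, minimum total 15), scaled by TMM and fitted with edgeR 4.0.16 in R 4.3.3 (glmQLFit and glmQLFTest, hemisphere plus fish as a block) over 10513 genes, with Benjamini-Hochberg adjustment and the cutoffs 0.1 and 0.4 that the study used. Standard errors were the log2 fold change over the square root of the F statistic. CPM used the TMM-scaled totals, and log2 ratios within fish used a prior count of 2. A two-sided exact sign-flip permutation test over 10 fish (1024 patterns) was run per gene. The counts used came to 9213580 to 11070103 per library, and low genes are limited by counting error. The study's methods describe several times as many mapped reads per library, so most mapped reads are absent from these counts.

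Both hemispheres came from the same animal by the subject label. Once group means were subtracted, correlations were 0.385 to 0.731 (median 0.579) between hemispheres of a fish and -0.207 to 0.201 between fish. Genes were named by rule: members at an adjusted p of 0.4 or less, and in each role the 3 with the smallest p and the 2 with the most counts. From the other lists, up to 3 called genes were named. This gave 47 of the 66 tested members, of which 1 enters the counts but is not reported here. Further members were named after their values were seen, among them cdk20, cdc45, cdca8, cdk19 and mcm8. So were some genes of the other lists, among them ccng1. Alternatives were DESeq2 1.42.0 (size factors and Wald test), library totals, upper quartile scaling, no filter, no block, each fish left out, and a prior count of 0.5. The scripts were tested on simulated data.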

Additional observations from a re-analysis of the deposited data

Results flagged for a closer look

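For the 66 tested members, the log2 CPM of the 10 lesioned hemispheres, of the 10 intact hemispheres and the 10 within-fish log2 ratios were each searched for a fish far from the other 9. Of 198 such groups of 10 values, 17 had a highest or lowest fish whose gap to its neighbour took up more of the range than Dixon's 95% critical value for 10 values, in 12 members, where chance alone would set apart about 1 in 20 groups, or 9.9.

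In 5 members the same fish stood apart in both hemispheres, on the log2 CPM scale. Fish 7 had 7.59 lesioned and 7.57 intact for cdk20 (others 5.52 to 5.83 lesioned, 5.61 to 5.89 intact). Fish 4 had 5.05 lesioned and 5.35 intact for LOC105929370, the reductase large subunit-like gene (others 0.34 to 2.01 lesioned, 0.13 to 2.47 intact). For mcm9, fish 10 had 3.28 lesioned and 3.47 intact (others 4.69 to 5.09 lesioned, 4.60 to 5.10 intact). For mcm7, fish 8 had 5.82 lesioned and 5.87 intact (others 5.34 to 5.58 lesioned, 5.46 to 5.60 intact). For the aurora kinase B-like gene LOC105921707, fish 3 had -1.03 lesioned and -0.33 intact (others 0.45 to 1.27 lesioned, 0.98 to 1.36 intact).

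In 3 members 1 hemisphere alone stood apart. These were mcm8 in the lesioned side of fish 10 (3.76, others 3.01 to 3.40), pold3 in the lesioned side of fish 4 (4.34, others 4.58 to 4.76) and cdkn3 in the intact side of fish 10 (4.91, others 4.02 to 4.25).

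In 4 members the within-fish log2 ratio of 1 fish stood apart. For cdc25b fish 3 had -0.52 where the others had 0.06 to 0.54. For e2f4 fish 6 had -0.35 where the others had 0.0071 to 0.20. For LOC105920807, mcm2-like, fish 4 had -1.04 where the others had -0.17 to 0.77. For cdk19 fish 8 had 0.38 where the others had -0.22 to 0.09.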

How the results depend on the processing

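LOC105929554 passed the stringent cutoff in every one of the 16 other fits. Members called at 0.1 numbered 2 as reported and with the DESeq2 test and size factors, 1 with library totals, upper quartile scaling, no filter or no replicate block, and 1 to 2 with each fish left out. At 0.4, 6 members were called as reported, 2 with no filter (of 73 tested), 2 with the DESeq2 test, 1 with no replicate block, and 2 to 14 with each fish left out, the highest without fish 3. Over all genes, the counts at 0.1 were 145 as reported, 57 with no replicate block, and 101 to 216 with each fish left out. At 0.4 they were 1060 as reported, 674 with no filter, 370 with the DESeq2 test, 88 with no replicate block, and 279 (without fish 8) to 2066 (without fish 3). Of the calls at 0.4 over all genes, 60.7% were higher in lesioned tissue as reported, 47.5% with library totals, 42.3% with upper quartile scaling, 83.5% with the DESeq2 test and 97.7% with no replicate block. Among the 52 members followed by name across the fits, 12 changed sign in some setting, all from estimates within 0.09 of 0. Sign changes of the other members, some of them named above, were not counted. For LOC105931481 upper quartile scaling gave -0.0026. With each fish left out, the log2 fold changes ran from -0.0158 to 0.0627 for LOC105925045, -0.03 to 0.0149 for LOC105928544, -0.0106 to 0.0259 for LOC105931481, -0.162 to 0.00391 for ccnb3, -0.0125 to 0.0123 for cdc5l, -0.0275 to 0.00507 for cdc73, -0.000366 to 0.0308 for pold3, -0.0152 to 0.00253 for poldip3, -0.0646 to 0.0189 for cdc45, -0.0446 to 0.023 for cdk19, -0.041 to 0.00379 for cdk20 and -0.0593 to 0.0302 for mcm8. A prior count of 0.5 changed no sign-flip call. The causes of these changes were not tested. Genes with few counts, such as cdk1 and the aurora kinase B-like gene, have wide intervals, and the data do not tell apart differences inside them.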
